A study of Mus musculus with 8 samples.

Results

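Kcnj2, Rnf144b, Cx3cr1 and Cd28 are 4 genes whose signal was among those with the largest differences downward when mouse peritoneal macrophages were given IL-10. They are 4 of the 11996 genes in the table analysed here, and all 4 passed the filter on low values that kept 11400. They were picked by their ratio of IL-10 to mock signal, so that ratio is described below and not tested. The cells were macrophages drawn into the peritoneum of C57BL/6 mice by thioglycolate and left to adhere to plastic for 24 h. The 8 samples form 4 groups of 2: wildtype and Ptpn1-/- cells, each mock-treated or given IL-10 at 100 ng/ml for 4 h. Thioglycolate elicitation and adherence are shared by all 4 groups. The labels used here do not state the animals' age or sex, whether cells were pooled, or if both treatments were given to cells of the same mice. The table gives 1 value per gene and group, so no spread between samples is known, no difference below was tested, and depth is unknown. Values are in units of the authors' normalized signal, and ratios are log2 ratios after adding 26.7 units (1 ppm, 1 millionth of a column's total) to each value, which shrinks the ratios of low genes. Where 2 signals are given for a genotype, the first is mock and the second IL-10, and 2 ratios without a further word are those of wild type and then the knockout.

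The cytokine IL-10 restrains inflammation. Its receptor on macrophages signals through the kinases JAK1 and TYK2 to the transcription factor STAT3, and it is best known for limiting the output of inflammatory genes. Ptpn1 encodes PTP1B, a tyrosine phosphatase that acts on receptors and JAK kinases. The 4 genes have unlike products. Kcnj2 encodes Kir2.1, an inward rectifier potassium channel that helps to set the resting membrane potential. Rnf144b encodes a RING-between-RING (RBR) ubiquitin ligase that p53 can induce. Cx3cr1 encodes the G protein-coupled receptor for the chemokine fractalkine (Cx3cl1) on monocytes and macrophages. Cd28 encodes the receptor through which T cells receive costimulation from Cd80 and Cd86.

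The sequences upstream of the start sites are shown because the 4 genes had ratios of the same direction, and STAT3 is the factor that IL-10 activates. RefSeq start windows were matched for 3 of the 4 genes (not Cd28), and each line holds the 250 bases before an annotated start on build GRCm38.p6. The Kcnj2 window is chr11:111065914-111066163 (plus strand), those of Rnf144b are chr13:47122470-47122719 and chr13:47193753-47194002 (plus strand), and that of Cx3cr1 is chr9:120068297-120068546 (minus strand). Capitals mark matches, on either strand, to TTCNNNGAA, the STAT motif, to TGANTCA, the AP-1 motif, to TGACGTCA, the CRE, or to the short words of the CCAAT box, the TATA box (TATAAA), the E-box (CACGTG) and the GATA motif (GATAA), and no 2 matches overlap.
Kcnj2: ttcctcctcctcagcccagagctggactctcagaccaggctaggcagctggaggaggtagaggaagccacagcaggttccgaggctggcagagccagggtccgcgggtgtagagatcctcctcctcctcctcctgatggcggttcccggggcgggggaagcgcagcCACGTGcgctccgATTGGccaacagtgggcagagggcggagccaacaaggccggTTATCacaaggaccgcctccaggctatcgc
Rnf144b, upstream start: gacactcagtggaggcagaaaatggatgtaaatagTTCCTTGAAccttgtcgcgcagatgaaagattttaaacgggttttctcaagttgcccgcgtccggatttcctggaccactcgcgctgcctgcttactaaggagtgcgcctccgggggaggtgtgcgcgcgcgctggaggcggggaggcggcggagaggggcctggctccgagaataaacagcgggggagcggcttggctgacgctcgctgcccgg
Rnf144b, downstream start: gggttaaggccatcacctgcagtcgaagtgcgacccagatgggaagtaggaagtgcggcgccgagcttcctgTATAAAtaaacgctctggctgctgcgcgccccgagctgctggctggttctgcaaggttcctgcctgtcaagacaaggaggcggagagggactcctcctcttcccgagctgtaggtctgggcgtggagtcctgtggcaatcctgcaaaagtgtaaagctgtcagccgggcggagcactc
Cx3cr1: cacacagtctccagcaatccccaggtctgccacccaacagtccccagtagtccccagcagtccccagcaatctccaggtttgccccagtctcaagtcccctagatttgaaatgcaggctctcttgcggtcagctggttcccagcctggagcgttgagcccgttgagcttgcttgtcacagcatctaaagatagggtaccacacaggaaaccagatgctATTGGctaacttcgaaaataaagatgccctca
A single STAT match was found in these 4 windows, TTCCTTGAA at bases -215 to -207 from the upstream start of Rnf144b. Of 32851 windows of the same length, 7.02% hold that motif. Kcnj2 and Cx3cr1 each had a CCAAT match on the reverse strand, at bases -71 to -67 and -32 to -28, a motif held by 33.8% of windows. The Kcnj2 window also held CACGTG (6.02% of windows) and a reverse-strand GATAA (22.6%), and the downstream Rnf144b window held TATAAA (12.4%). The letters of AP-1 (6.75% of windows) and CRE (1.55%) were not in these 4 windows. The matches describe the letters in these windows and are not shown to be bound.

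Kcnj2 (ENSMUSG00000041695; mm9 chromosome 11, 110927478 to 110938135, plus strand) had the lowest ratio of the 4 genes in both genotypes. Its signal was 1313.5 units in wild-type cells under mock and 554.5 with IL-10, and 1132 and 394 in knockout cells. Both IL-10 values thus lay below both mock values, and the knockout was the lower genotype under each treatment. With IL-10, 42.2% of the mock signal was left in wild-type cells and 34.8% in knockout cells, log2 ratios of -1.21 and -1.46. In units the difference was of like size in both genotypes, 759 in wild-type cells and 738 in knockout cells. In bulk RNA, fewer cells of a type that expresses a gene and less RNA per cell cannot be told apart, which holds for all 4 genes.

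Rnf144b (ENSMUSG00000038068; mm9 chromosome 13, 47218089 to 47343360, plus strand) had nearly equal mock signals in the genotypes and unequal IL-10 signals. Its signal was 1649 units in mock-treated and 1053.5 in IL-10-treated wild-type cells, and 1609.5 and 792 in knockout cells. The share of the mock signal left with IL-10 was 63.9% in wild-type cells and 49.2% in knockout cells. The log2 ratios were -0.63 and -0.999, with differences of 595.5 and 817.5 units.

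Cx3cr1 (ENSMUSG00000052336; mm9 chromosome 9, 119957811 to 119977400, minus strand) was the one of the 4 listed higher in knockout cells than in wild-type cells under mock. Its signal was 219 units under mock and 131 with IL-10 in wild-type cells, and 237.5 and 106 in knockout cells. The knockout therefore held both the highest and the lowest of its 4 values. IL-10 left 59.8% of the mock signal in wild-type cells and 44.6% in knockout cells, log2 ratios of -0.64 and -0.99. Its values are low enough for the added constant to matter. With 4 ppm added in place of 1, its wild-type ratio was -0.45, which is short of 1.5-fold.

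Cd28 (ENSMUSG00000026012; mm9 chromosome 1, 60773644 to 60820007, plus strand) had about the same ratio in both genotypes. Its signal was 395 units in mock-treated and 194 in IL-10-treated wild-type cells, and 369.5 and 179 in knockout cells. The signal left with IL-10 was 49.1% of mock in wild-type cells and 48.4% in knockout cells, log2 ratios of -0.93 and -0.95. Its 2 mock values lay near each other and well apart from its 2 IL-10 values.

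**Figure D1:**
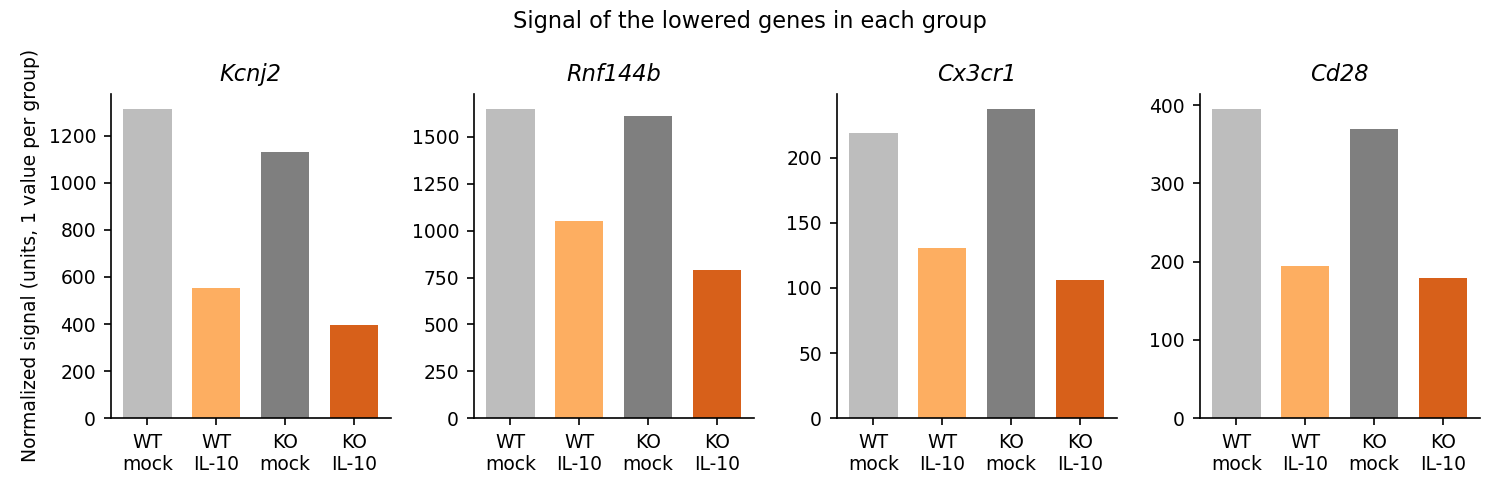
Normalized signal (units, 1 authors' value per group, no error bars because no value per sample was analysed) of Kcnj2, Rnf144b, Cx3cr1 and Cd28 in wild-type cells (WT) and Ptpn1 knockout (KO) under mock and IL-10, each panel with its own axis from 0. For each gene both IL-10 bars are lower than both mock bars, and the KO IL-10 bar is the lowest.

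The 4 genes stood at the lower end of the table by the choice that picked them. Among the 9293 genes with a mean signal between 134 and 20000 units, ranked from the lowest mean of both IL-10 ratios, Kcnj2 was 1st, Cd28 2nd, Cx3cr1 4th and Rnf144b 5th. In wild type alone they ranked 1, 2, 14 and 18 in that order, and in knockout cells 1, 5, 3 and 2. At least 1.5-fold lower with IL-10 were 47 of 11400 genes in wild-type cells (0.412%) and 92 in knockout cells (0.807%), and 27 (0.237%) in both, all 4 among them. Kcnj2 was at least 2-fold lower in both genotypes. That limit was passed by 2 genes in each genotype (0.0175%), by Msn besides Kcnj2 in wild-type cells and by Zhx2 in knockout cells. Zhx2 is a gene of low signal, at 108.5 and 95 units in wild-type cells and at 49 and 1 in knockout cells. The ratios of Rnf144b, Cx3cr1 and Cd28 in knockout cells lay just short of the 2-fold limit with the added constant. Without it, the knockout signals were 2.03-fold (Rnf144b), 2.24-fold (Cx3cr1) and 2.06-fold (Cd28) lower with IL-10, and that of Kcnj2 was 2.87-fold lower. The wild-type signals were then 1.57-fold (Rnf144b), 1.67-fold (Cx3cr1), 2.04-fold (Cd28) and 2.37-fold (Kcnj2) lower. The members' median ratio was -0.79 in wild-type cells and -0.996 in knockout cells, beside 0.00 and -0.01 over all kept genes. These figures restate the choice and support nothing beyond it.

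**Figure D2:**
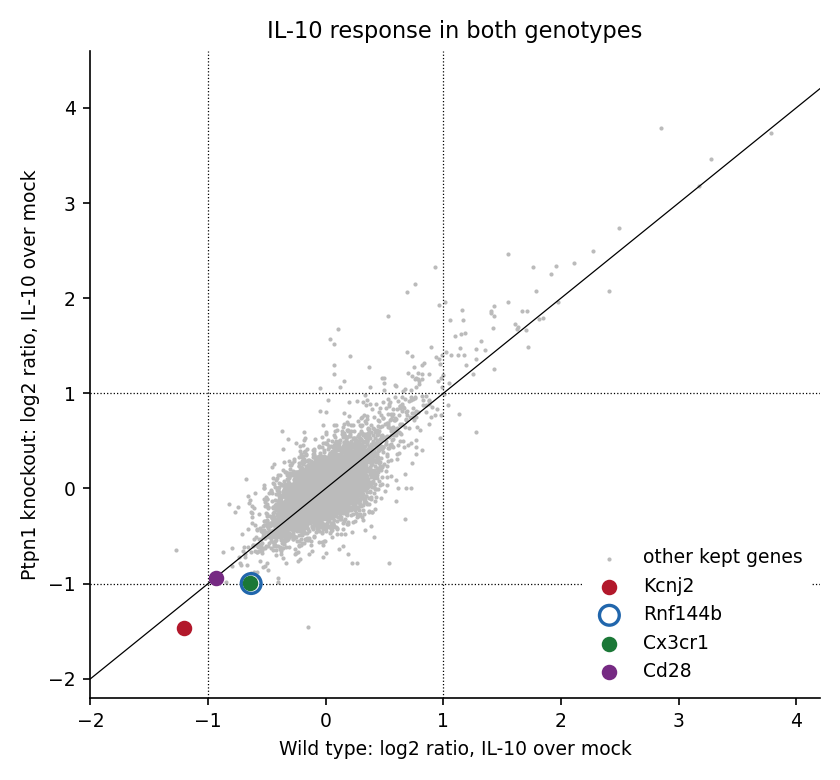
Each point is 1 of 11400 kept genes, with its log2 ratio of IL-10 over mock signal in wild-type cells (horizontal) and in the Ptpn1 knockout (vertical). The solid line marks equal ratios and dotted lines mark 2-fold. Kcnj2 is at the lower left (-1.21 and -1.46), Cd28 is on the line, and Rnf144b (ring) and Cx3cr1 (filled, inside the ring) lie below it.

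Genes just beyond the 4 in rank had ratios close to theirs. Kctd12b, of the KCTD family, lay between Cd28 and Cx3cr1, at 823 and 446 units in wild-type cells and 554 and 266.5 in knockout cells. Next after Rnf144b (mean ratio -0.82) came Rasgrp3, an exchange factor for Ras, at 230.5 and 121.5 units in wild-type cells and 127 and 60.5 in knockout cells (mean ratio -0.81). Among those that followed were Gfod1 (-0.77), BC031353 (-0.76) and Trim36 (-0.76), of the TRIM family of ubiquitin ligases. There is thus no gap in the ranking that sets Cx3cr1 and Rnf144b off from the genes after them. At the other end, Kcnj2 (mean ratio -1.33) stood apart from Cd28 (-0.94).

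**Figure D3:**
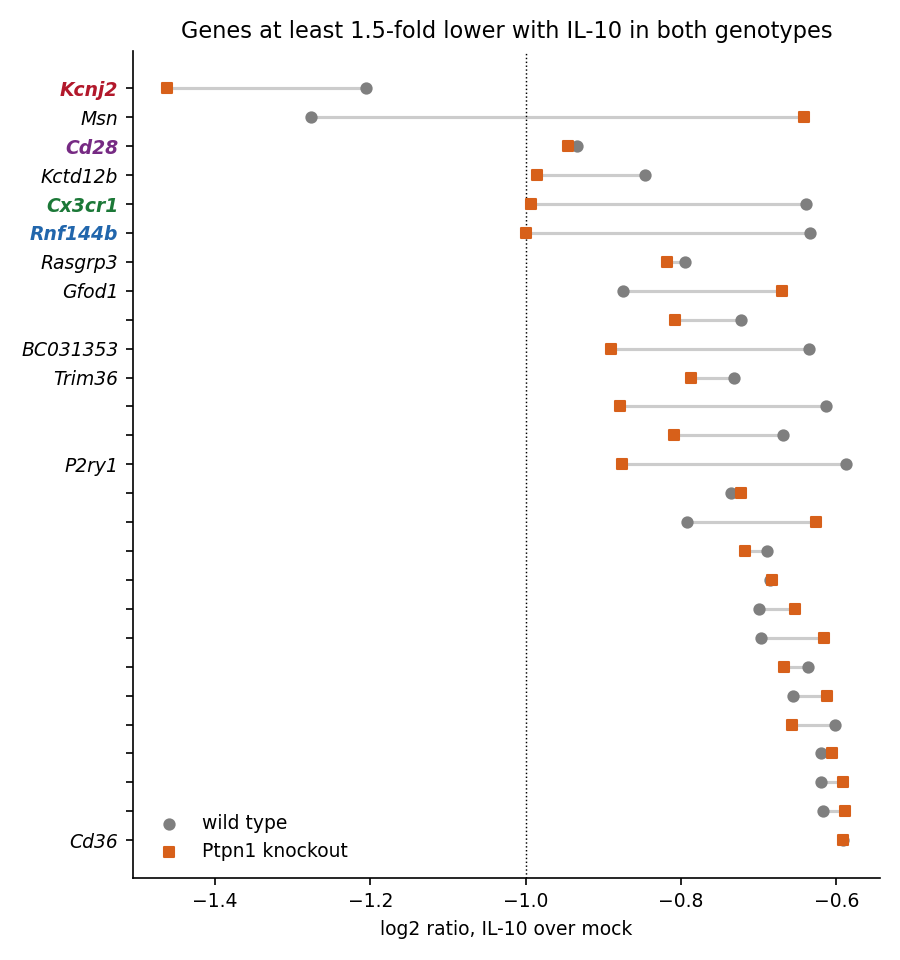
The 27 genes at least 1.5-fold lower with IL-10 in both genotypes, ordered by the mean of both ratios, with circles for wild type and squares for the Ptpn1 knockout (log2 ratio of IL-10 over mock; the square covers the circle where they coincide). The dotted line marks 2-fold, Kcnj2 lies past it in both genotypes, and names are given for the 4 genes (in colour) and for those described in the text.

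By profile over the 4 groups, Rnf144b and Cx3cr1 were the most alike of the 4 genes. Likeness was measured as the distance between profiles of log2 signal, each centred on its own mean, so that 0 means the same pattern. The distance was 0.15 between Rnf144b and Cx3cr1, 0.21 between Cx3cr1 and Cd28 and 0.25 between Rnf144b and Cd28. Kcnj2 lay farther from all 3, at 0.48 to 0.58. Outside the 4, the genes nearest to Rnf144b among 9439 genes of at least 134 units were Abcd2, a peroxisomal fatty acid transporter gene (distance 0.08), BC031353 (0.09) and Bach2, a transcriptional repressor gene (0.14). Abcd2 stood at 580.0 and 380.5 units in wild-type cells and at 545.5 and 273 in knockout cells. Among those nearest to Cx3cr1 were P2ry1, which encodes an ADP receptor (0.10), and BC031353 (0.12). P2ry1 stood at 281 and 178 units in wild-type cells and at 288.5 and 145 in knockout cells, so that it too had its highest and lowest values in knockout cells. Among those nearest to Cd28 were Trim36 (0.21) and BC031353 (0.22). Kcnj2 had no neighbour as close: Kctd12b, Msn and Abcd2 followed at 0.51, 0.58 and 0.59. The profiles were not scaled, so a larger difference between mock and IL-10, as for Kcnj2, by itself gives a larger distance. The distances also rest on the columns that picked the 4 genes, so likeness among genes with low ratios partly restates that choice. With 4 values per gene these distances describe the table and carry no error.

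Under mock treatment, the comparison of the knockout with wild type gave small ratios for all 4 genes. The choice of the genes did not use this comparison, though it used both mock columns. The log2 ratio was -0.21 for Kcnj2, -0.03 for Rnf144b, 0.10 for Cx3cr1 and -0.09 for Cd28. None was 1.5-fold in either direction, which 2.83% of kept genes were. Of the 500 genes nearest to Kcnj2 in mean signal, 25.2% had a ratio at least as large in size, and for the other 3 genes that share was 63.6 to 85.2%. The sign for Rnf144b depended on transcript length, since its ratio was 0.019 once the trend over length was subtracted.

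With IL-10 all 4 genes were listed lower in knockout cells, with Kcnj2 and Rnf144b farthest from 0. Knockout signal was 71.1% of wild type for Kcnj2, 75.2% for Rnf144b, 80.9% for Cx3cr1 and 92.3% for Cd28, log2 ratios of -0.47, -0.40, -0.25 and -0.10. No ratio reached 1.5-fold, which 2.79% of kept genes did, and 47.4% of kept genes were below 0. Among the 500 genes nearest in signal, 3.2% had a ratio as large in size as that of Kcnj2 and 2.8% as that of Rnf144b, against 22.4% for Cx3cr1 and 58.0% for Cd28. The IL-10 columns entered the choice of the genes, so a low value in the knockout IL-10 column was favoured by it. Once adjusted for transcript length, the ratios were -0.40 for Kcnj2, -0.36 for Rnf144b, -0.22 for Cx3cr1 and -0.08 for Cd28. Marker genes of other cells also differed by genotype. For the 9 kept monocyte markers the median log2 ratio of knockout to wild type was 0.59 in mock-treated cells and 0.62 in IL-10-treated cells. For the 8 kept mesothelial cell and fibroblast markers these medians were -0.63 and -0.62. They were -0.41 and -0.33 for the 8 kept resident peritoneal macrophage markers, 0.41 and 0.54 for the 4 kept mast cell markers and 0.67 and 0.84 for the 2 kept neutrophil markers, with the other lists that kept a marker between -0.25 and 0.14. The macrophage list had medians of 0.06 and -0.05, with Lyz2 the lowest (-1.41 and -0.995) and Fcgr1 the highest (0.79 and 0.61). Lyz2, at 362618 units in wild-type and 136852 in knockout cells under mock, lies far above 20000 units, where neighbouring values are wide apart. The part of all these markers in the members' genotype ratios was not tested.

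The difference between the genotypes' IL-10 ratios was -0.37 for Rnf144b, -0.35 for Cx3cr1, -0.26 for Kcnj2 and -0.01 for Cd28, where a negative value is a lower ratio in knockout cells. All 4 were below 0, as were 51.2% of kept genes, and none reached 1.5-fold, which 0.763% did. Among the 500 genes nearest in signal, 1.6% had a difference as large in size as that of Rnf144b, 5.2% as that of Kcnj2, 6.4% as that of Cx3cr1 and 93.8% as that of Cd28. Both IL-10 ratios entered the choice of the genes, so these shares are not independent of it and support no genotype difference. The value for Cd28 was 0.0014 with 4 ppm added, so its sign depended on the added constant. Of the 27 genes at least 1.5-fold lower in both genotypes, 15 (55.6%) had the lower ratio in knockout cells. Whether the response of any of these genes differed between genotypes was not tested, for want of values per sample. Ptpn1 itself stood at 4960.5 units in wild-type cells and 3836.5 in the columns labelled knockout under mock, and at 6736 and 5391.5 with IL-10. The part of the gene that was deleted is not given in the sources used here, so these values check the genotype labels only weakly. Socs3, the feedback inhibitor that STAT3 induces, stood at 380.5 and 3924.5 units in wild-type cells and at 432 and 5021 in knockout cells, which sets the IL-10 columns apart from the mock columns in both genotypes.

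**Figure D4:**
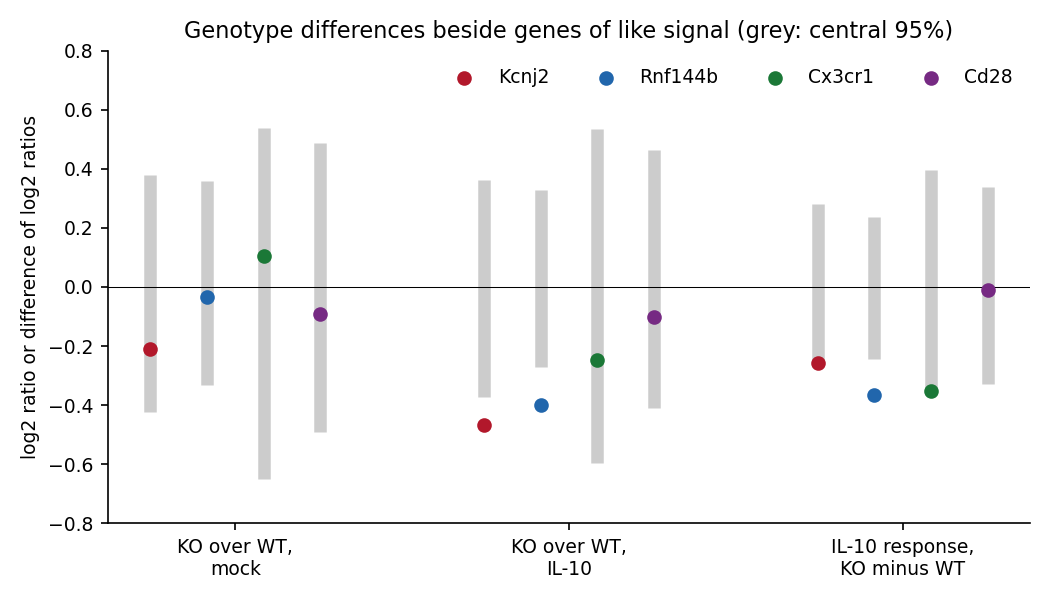
Points give, for each of the 4 genes, the log2 ratio of knockout (KO) over wild type (WT) signal under mock and with IL-10, and the KO minus WT difference of the IL-10 log2 ratios. Grey bars span the central 95% of the 500 genes nearest in mean signal and are not replicate errors. The IL-10 columns entered the choice of the 4 genes, so positions outside a bar are not independent of that choice. Kcnj2 and Rnf144b lie below their bars with IL-10 (-0.47 and -0.40) and in the difference of the IL-10 ratios (-0.26 and -0.37), and under mock all 4 points lie within them.

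Of the kept genes related to each of the 4 by function, Sesn1 alone was at least 1.5-fold lower with IL-10, and that in knockout cells. Over all kept genes the share was 0.412% in wild-type cells and 0.807% in knockout cells, so these low counts do not set the lists apart. Of 44 potassium channel and related genes fixed as a list, 10 had a value and 8 passed the filter. None was 1.5-fold lower in either genotype, and the medians were -0.06 in wild-type cells and -0.09 in knockout cells. Kcnk13, a two-pore domain potassium channel gene, went the other way, from 566 to 1708.5 units in wild-type cells and from 694 to 2782 in knockout cells, log2 ratios of 1.55 and 1.96. It was the 1 of 8 at least 2-fold higher, which 0.465% of kept genes were in wild-type cells and 0.877% in knockout cells. Hvcn1, a proton channel gene also on the list, stood at 11915.5 and 9749 units in wild-type cells and at 9627 and 7489 in knockout cells. Kcna3, a voltage-gated potassium channel gene of low signal, stood at 46 and 26 units in wild-type cells and at 50.5 and 49.5 in knockout cells. Of the other inward rectifiers on the list Kcnj8 had a value, and it lay below the filter at 9 to 15 units.

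RBR ubiquitin ligases and their partners stayed near 0. Of 17 names on the list, 14 passed the filter, with medians of -0.03 in both genotypes, and none was 1.5-fold lower or higher. Rnf144a, the closest relative of Rnf144b, lay below the filter at 17.5 to 29 units. By the mean size of both ratios, the first 3 were Rnf19b (0.32 in wild-type cells and 0.50 in the knockout), Cul9 (-0.15 and -0.22) and Arih1 (-0.21 and -0.15). The list of p53 target genes had 22 of 24 members kept and medians of -0.11 and -0.06. Sesn1, a stress-induced regulator of metabolism, was the 1 of 22 at least 1.5-fold lower in knockout cells, beside 0.807% of kept genes. In wild-type cells none was, beside 0.412%. Sesn1 stood at 878 and 792 units in wild-type cells and 899.5 and 549.5 in knockout cells. Trp53inp1 had ratios of -0.38 and -0.31 and the growth arrest gene Gadd45a 0.44 and 0.39. Trp53, which encodes p53, stood at 1597 and 1512 units in wild-type cells and at 1663 and 1459 in knockout cells.

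For Cx3cr1, 7 of the 8 genes on the fractalkine list passed the filter, and the ligand gene Cx3cl1 was not analysed here. Their medians were -0.01 in wild-type cells and 0.04 in knockout cells, and none was 1.5-fold lower or higher. Adam17, a protease that sheds fractalkine from cells, had a ratio of -0.29 in both genotypes, the beta-arrestin gene Arrb2 0.28 and 0.33, and the receptor kinase gene Grk6 0.24 and 0.36. Gnai2, an inhibitory G protein subunit gene, stood at 15480.0 units with and without IL-10 in wild-type cells. In knockout cells it stood at 15251 under mock and again at 15480.0 with IL-10. All columns have the same total and their normalization is not stated, so such an exact repeat between columns need not mean equal amounts of RNA.

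Genes around Cd28 in function were mostly listed higher with IL-10. Of 17 genes for the CD28 family, its ligands and its signalling, 10 passed the filter, with medians of 0.31 in wild-type cells and 0.45 in knockout cells. Below 0 were 2 of 10 in wild-type cells and 0 in knockout cells, beside 49.5% and 53.8% of kept genes. None was 1.5-fold lower, and 1 (Lck) in wild-type cells and 2 (Lck and Cd274) in knockout cells were at least 2-fold higher. Over all kept genes, 0.465% in wild-type cells and 0.877% in knockout cells were at least 2-fold higher. At least 1.5-fold lower were 0.412% and 0.807%, so the lack of such a gene among 10 does not set the list apart. Lck, the kinase that acts early in T cell receptor signalling, stood at 11.5 and 105 units in wild-type cells and at 10 and 128 in knockout cells. Cd274, the checkpoint ligand PD-L1, stood at 3006.5 and 5193.5 units in wild-type cells and at 3358.5 and 7461.5 in knockout cells. Vav1, an exchange factor downstream of CD28, had ratios of 0.73 and 0.93. The ligands of CD28, named outside the rule, were Cd80, at 117 and 118 units in wild-type cells and 143 and 147 in knockout cells, and Cd86, at 359.5 and 523 and at 438 and 632. The other receptors of the family (Ctla4, Icos, Pdcd1 and Btla) were not analysed here. The list of the IL-10 receptor and STAT3 pathway had all 11 members kept and medians of 0.71 and 0.92. It holds Socs3, which STAT3 induces, beside receptor and kinase genes, and was chosen with earlier results of these data known. Its medians therefore do not describe the receptor and kinases. At least 2-fold higher were 3 in wild-type cells (Socs3, Il4ra and Bcl3) and 4 in knockout cells (these and Stat3), and none was 1.5-fold lower. The shares over all kept genes are those given for the CD28 list. The receptor chain genes Il10ra (-0.14 and -0.21) and Il10rb (-0.04 and -0.08) had ratios near 0. The kinase genes Jak1 (0.25 and 0.32) and Tyk2 (-0.19 and -0.15) were also short of 1.5-fold.

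**Figure D5:**
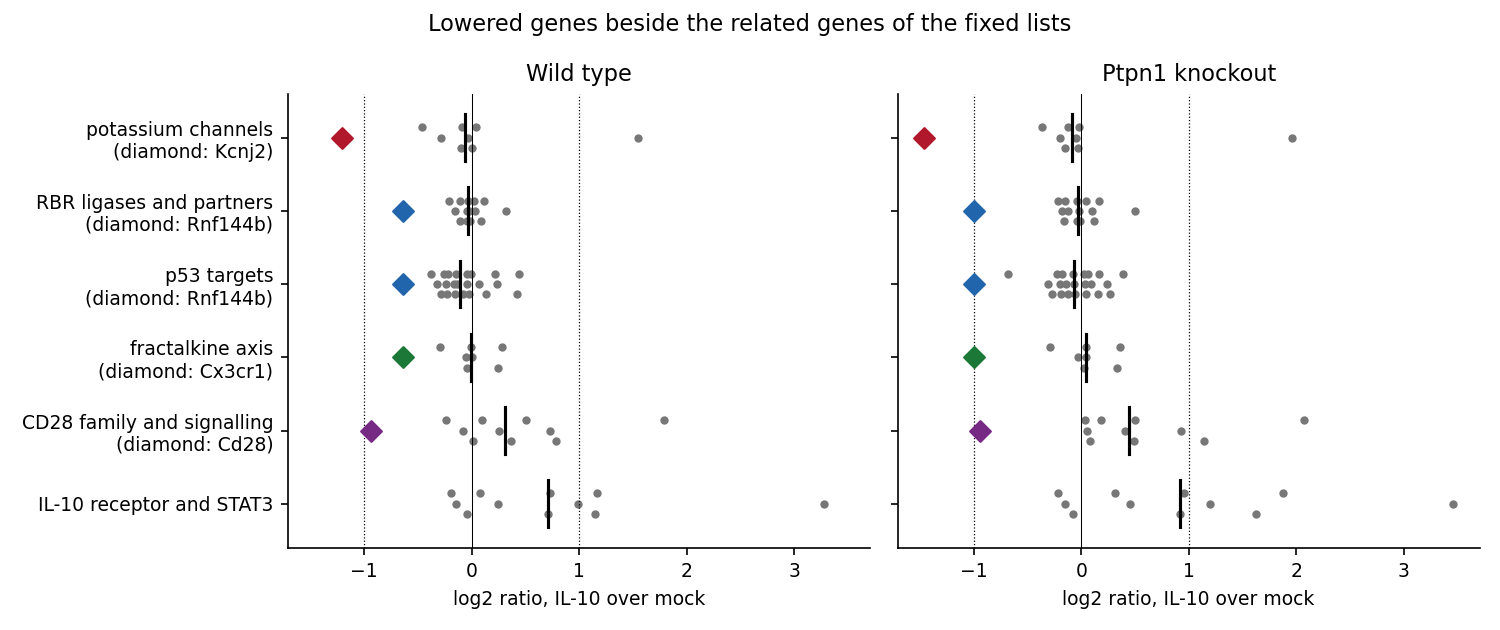
Log2 ratios of IL-10 over mock signal in wild-type cells (left) and the Ptpn1 knockout (right) for the kept genes of 6 fixed lists (grey points, black bar at the list's median), with the related member as a diamond. Dotted lines mark 2-fold. In each of the 5 lists with a diamond, all grey points lie to its right. The members were picked for their low ratios, so this position restates the choice and says nothing about the lists.

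Of 102 marker names of cell types on 11 lists, 64 had a value and 53 passed the filter. None of the 53 was 1.5-fold lower with IL-10 in either genotype. Over all kept genes that share was 0.412% in wild-type cells and 0.807% in knockout cells, so the count does not set the markers apart from other genes. For T cells, for which Cd28 is best known, 7 of 19 markers had a value and no Cd3 gene was among them. Their summed signal was 33417 units under mock and 35220.0 with IL-10 in wild-type cells, and 37563 and 45310.5 in knockout cells. Nearly all of it was Il7r, at 32926 and 34645.5 units in wild-type cells and 37024 and 44686.5 in knockout cells. The sum therefore describes Il7r, a gene above 20000 units, and not the T cell markers as a set. Of those passing the filter Thy1, Lat and Tcf7 had ratios of -0.22 to 0.05, Il7r 0.07 and 0.27, and Lck was higher as given above. For monocytes, which carry Cx3cr1, 9 of 10 markers had a value, with a summed signal of 1627.5 and 2107 units in wild-type cells and 2925.5 and 3634 in knockout cells. Their median IL-10 ratios were 0.08 and 0.14. Most of the difference between their mock and IL-10 sums lay in Ccr2, with a ratio of 0.75 in both genotypes, and Chi3l3, with ratios of 0.33 and 0.14. The macrophage list (9 of 10 kept) had medians of 0.00 in both genotypes. It summed to 659238.5 and 568361.5 units in wild-type cells and 477482.5 and 476268.5 in knockout cells. Most of each sum was Lyz2 and Cd68, both far above 20000 units, where neighbouring values are wide apart. Resident peritoneal macrophage markers had medians of 0.17 and 0.11 and sums of 2836 and 3171 units in wild-type cells and 2985.5 and 3186 in knockout cells, and Selp among them was at least 2-fold higher. Mesothelial cell and fibroblast markers had medians of 0.03 and 0.04 with IL-10, and their sums differed by genotype, at 33241.5 and 31872 units in wild-type cells and 20010.0 and 19900.5 in knockout cells. Dendritic cell markers had medians of -0.10 and 0.03 over 5 kept, with Cd209a at least 2-fold higher, and mast cell markers 0.10 and 0.15 over 4 kept. The eosinophil, neutrophil and B cell lists kept 1, 2 and 2 markers with medians between -0.05 and 0.39, and no NK cell marker had a value. No marker with a value was at 0, the lowest being 6 units. The part that any of these cells have in the members' values was not tested.

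All 4 genes have transcripts longer than the median of kept genes. The rule did not use length, but the IL-10 ratio it used was related to length, as given below. Their longest annotated transcripts (GENCODE M21) have 5444 bases for Kcnj2, 4640 for Rnf144b, 4493 for Cx3cr1 and 4347 for Cd28, and the median of kept genes is 3461. Shorter transcripts were those of 80.8%, 71.8%, 69.5% and 67.0% of kept genes with a length, in the same order. Of the 27 genes lower in both genotypes, 24 have a transcript longer than that median. Across genes the IL-10 ratio was lower for longer transcripts, with a Spearman's rho of -0.36 in wild-type cells and -0.13 in knockout cells over 11222 genes that share the same columns. With the trend over length subtracted, the ratios of the 4 genes were -1.14, -0.59, -0.61 and -0.91 in wild-type cells and -1.42, -0.97, -0.97 and -0.92 in knockout cells, in the order just given, so each stayed at least 1.5-fold lower. For the ratio of knockout to wild type, rho with length was -0.53 under mock and -0.40 with IL-10. For the difference between the genotypes' IL-10 ratios it was 0.26. The transcripts' GC content was 41.2% for Kcnj2 and Cd28, 48.0% for Rnf144b and 50.3% for Cx3cr1, around a median of 49.7%.

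The 4 genes lie on 4 chromosomes, and the next genes beside them in the table did not have like ratios. No other kept row overlaps theirs, and the 8 nearest rows, 1 on each side of each gene, had ratios between -0.34 and 0.84. Csrnp1, 71443 bases from Cx3cr1, stood at 446 and 662 units in wild-type cells and at 504.5 and 850.5 in knockout cells. Slc25a38, 42123 bases away on its other side, had ratios of 0.12 and 0.13. Dek, 24283 bases from Rnf144b, had ratios of 0.14 and 0.28. The next kept rows beside Kcnj2 were farther off, Abca5 at 728542 bases (-0.18 and -0.04) and Sox9 at 1707907 bases (-0.12 and -0.21).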

How the data were processed

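RNA-seq of 8 samples (4 groups of 2) was deposited as a table of 11996 genes with 1 normalized signal per gene and group. RSEM, Bowtie and mm9 are named in the submitters' processing notes, with no versions, and normalization and gene filter were not stated there. The deposited signal is not CPM, as each column sums to 26705598 and all values are multiples of 0.5. Depth is unknown.

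Genes with a mean of at least 1 ppm of the column total were kept. Ratios are log2((a + 1 ppm)/(b + 1 ppm)), computed with pandas 2.3.3 and tested on simulated data. The planned limma fits, replicate block and leave-one-out fits need a column per sample and were not run, so limits of 2-fold and 1.5-fold stand in for a test. Lengths came from GENCODE M21 (98.4% of kept genes matched) and promoters from RefSeq. The members, 6 gene lists and 11 marker lists were chosen with earlier results of these data known. Named were the members, the 6 next lowest genes of 5 ppm to 20000 units, the 3 genes most alike each member, up to 3 genes per list and those past 2-fold, and Ptpn1 and Socs3. Other genes, among them Zhx2, nearby genes, CD28 ligands, receptor chains and markers, were named after their values were seen. A gene that the rule names is not reported here.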

Additional observations from a re-analysis of the deposited data

How the results depend on the processing

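Over 4 alternatives (0.25 or 4 ppm added in place of 1, centring on the 500 genes nearest in signal, or subtracting the trend over transcript length), the 4 genes kept an IL-10 ratio below 0 in both genotypes. With 0.25 ppm their median ratio in the knockout was -1.07, past 2-fold. The sign of the mock genotype ratio of Rnf144b (0.019 with the length trend subtracted) and of the difference between responses of Cd28 (0.0014 with 4 ppm) was reversed. Counts of lower genes moved more. At 2-fold they were 6 in wild type and 11 in the knockout with 0.25 ppm, and 1 in the knockout with 4 ppm or with the filter at 5 ppm, against 2 and 2. At 1.5-fold, wild type had 84 with 0.25 ppm, 16 with 4 ppm, 30 with the length trend subtracted and 31 with the filter at 5 ppm, against 47, and the knockout had 38 with 4 ppm, against 92. No paired analysis was possible because the table has 1 column per group, and for the same reason no sample could be left out.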

Other observations

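Msn and Cd36 were among the genes lower in both genotypes, and both lie far above 20000 units, where neighbouring values are wide apart. Msn stood at 75723 units with IL-10 in both genotypes, and at 183406 under mock in wild-type cells and 118147 in knockout cells. Cd36, a scavenger receptor gene, had the same values in both genotypes, 137379 units under mock and 91114 with IL-10.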
